A study of Mus musculus with 9 samples.

Results

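MA-10 cells are a mouse Leydig tumour line that makes steroid in response to cAMP, and their messages for the numbered Zfp genes, one of the largest groups of zinc finger genes in the mouse, are described here across 3 treatments. A gene was taken when its symbol was Zfp followed by digits alone and the mean of its control arrays was at least 7 on the log2 scale of the array. Zfp36, which encodes an RNA-binding protein of another class, was left out by name. Of 316 numbered Zfp genes among the 19938 genes measured with a probe of a single symbol, 237 met the rule and 79 lay under it. Because the control arrays chose the genes, their control level is a description and not a result. Just inside the threshold stood Zfp182 at 7.02, Zfp469 at 7.06 and Zfp94 at 7.06, and just outside it Zfp605 at 6.98, Zfp830 at 6.98 and Zfp950 at 6.93.

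Total RNA was labelled for Affymetrix whole-transcript arrays, 3 arrays for each of 3 groups. Control cells received DMSO (their titles speak of no treatment), a further group received 10 µM forskolin, which activates adenylyl cyclase and raises cAMP, and the last group received 10 µM forskolin with 1 mM AICAR, which cells convert to an AMP analogue that activates AMP-activated protein kinase (AMPK). All cells were kept for 1.5 h in medium without serum, so every group shares the serum withdrawal. AICAR alone was not analysed here, and the only comparison that isolates it is made on top of forskolin. MA-10 is 1 tumour cell line, and nothing in the labels says that the 3 arrays of a group came from separate cultures, so the spread behind each p-value may be technical.

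Most numbered Zfp proteins are C2H2 zinc finger proteins, in which arrays of fingers, each folded round a zinc ion, read DNA sequence. Many also carry a KRAB domain, which binds the co-repressor Trim28 and through it brings the histone methyltransferase Setdb1 and heterochromatin proteins to DNA, often at transposable elements. The genes have multiplied by local duplication, and many sit in runs of neighbouring copies on a few chromosomes. A minority bear a Zfp number but act on RNA, ribosomes or the spindle.

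The arrays gave readings for markers of Leydig cells and of other cell types. In control cells Cyp11a1 and Nr5a1, which mark steroid-making cells, stood at 11.7 and 11.9, whereas the germ cell genes Dazl and Sycp3 stood at 4.12 and 4.34 and the macrophage gene Adgre1 at 4.75. The other Leydig markers measured were Cyp17a1 at 10.6, Hsd3b1 at 8.71 and Star at 8.58, and Hsd3b1 and Star lay below the Sertoli gene Sox9. Of the 19 markers measured for 5 cell types, those outside the Leydig list that stood above 7 were the Sertoli genes Sox9 at 9.88 and Cldn11 at 7.03, the endothelial gene Cdh5 at 11.97, the germ cell gene Ddx4 at 7.38 and the macrophage gene Cd68 at 7.74, while the Sertoli genes Amh and Fshr stood at 6.54 and 6.39 and the endothelial gene Pecam1 at 6.35. The array medians lay between 7.48 and 7.55, and no 2 arrays held the same values. The interquartile range was narrowest on AICAR arrays 3 and 2, at 3.24 and 3.29, and lay between 3.40 and 3.53 on the other 7.

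Many of these genes were lower after 1.5 h with AICAR. Against forskolin alone, 76 of the 237 genes (32.1%) fell and 1 rose at an adjusted p under 0.05 in limma, with Benjamini-Hochberg adjustment over all genes. Over all genes tested, 5.1% were called in either direction, 4.12% lower and 0.978% higher. Among all genes with a control mean of at least 7 these shares were 7.77% and 6.8%. The median of the 237 log2 differences was -0.20, so that the middle gene dropped by 13.1%, whereas the median of the other genes of at least 7 was -0.02. The control arrays enter neither side of this difference, although they do enter the shared estimate of the spread.

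The shift covered most of the group and was small for most members. The log2 difference was below 0 in 197 of 237 genes (83.1%, against 57.6% of all genes of at least 7), and the middle part of the distribution ran from a lower quartile of -0.39 to an upper quartile of -0.03. In 122 genes (51.5%) every AICAR array lay below every forskolin array, against 12.2% of all genes tested and 19.8% of all genes of at least 7. Of the 237 genes 19 fell by at least 1.5-fold, against 128 of the 19938 genes tested (0.642%). The median size of the 76 falls was 1.36-fold. The smallest fall that was called was -0.17 on the log2 scale.

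**Figure D1:**
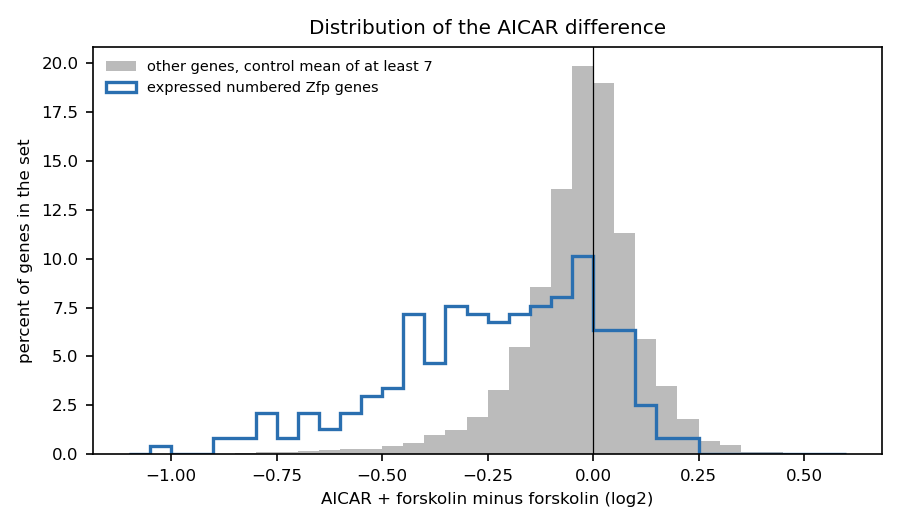
Histogram of the log2 difference between forskolin with AICAR and forskolin alone (x axis) as a percent of each gene set (y axis), for the 237 expressed numbered Zfp genes (blue outline) and the 11004 other genes with a control mean of at least 7 (grey), with values beyond the axis counted in the end bins. The grey set peaks near 0 with a median of -0.02, and the blue outline spreads to the left, with a median of -0.20.

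The count of calls moved with single arrays (numbered by replicate) while the direction of the median did not. Without the first AICAR array 120 genes were called lower, without the second 49, and without the third forskolin array 46. The same omissions called 1647, 448 and 425 of all 19938 genes tested lower, against 822 in the main fit. With arrays weighted by their quality 143 were called lower, and with the control arrays left out of the fit 47 were. For all genes tested these counts were 2654 and 446, and the weights also called 3075 genes higher. The weights ran from 0.318 on AICAR array 3 to 3.456 on forskolin array 2. Of the 76 genes, 43 kept their call whichever of the 9 arrays was left out. The median difference of the 237 genes stayed between -0.22 and -0.17 over the same omissions. With quantile normalization, which gives all arrays the same distribution, 66 were called lower and the median was -0.17. That setting called 763 of all genes tested lower.

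On each AICAR array the group as a whole stood below its control mean. The median deviation of the 237 genes was -0.14, -0.24 and -0.22 on the 3 AICAR arrays. It was -0.04, -0.04 and 0.03 on the forskolin arrays, and -0.02, -0.00 and 0.01 on the control arrays, whose own mean is the reference. The other genes of at least 7 deviated by between -0.04 and -0.01 on the AICAR arrays. Thus the first AICAR array showed the smallest shift of its group, and all 3 AICAR arrays lay below all 6 others. AICAR arrays 2 and 3, with the larger shifts, also had the narrowest interquartile ranges (3.29 and 3.24). A link between the shift and this range was not tested.

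**Figure D2:**
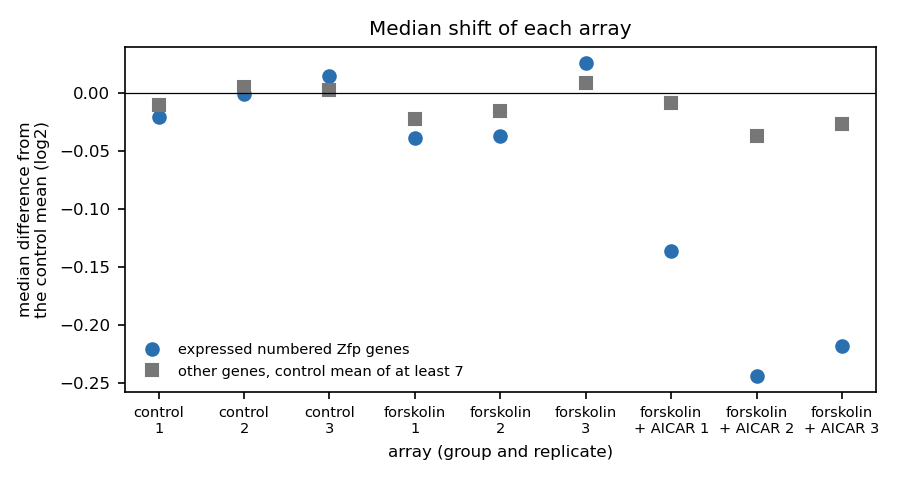
Median deviation from the mean of the control arrays (y axis, log2) on each of the 9 arrays (x axis), for the 237 expressed numbered Zfp genes (circles) and the 11004 other genes with a control mean of at least 7 (squares). The circles of the 3 AICAR arrays lie between -0.24 and -0.14, and every other point lies between -0.04 and 0.03.

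Zfp719, a zinc finger gene on chromosome 7 outside any run of members, had the largest fall. It read 8.63, 8.81 and 8.73 in control cells, 8.75, 8.60 and 8.90 with forskolin, and 7.84, 7.77 and 7.51 with AICAR added. The control and forskolin arrays overlapped, and all 3 AICAR arrays lay below them by more than the spread of any group. The fall from forskolin was 1.04 on the log2 scale (SE 0.10, limma adjusted p = 0.00050), or 2.06-fold.

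Zfp40, on chromosome 17, read 7.98, 7.91 and 8.07 with forskolin and 7.37, 7.07 and 6.84 with AICAR, a log2 difference of -0.90 (SE 0.12, limma adjusted p = 0.0024). Zfp90, a KRAB zinc finger protein known to interact with the neuronal repressor REST, read 8.65 on all 3 forskolin arrays and 7.98, 7.92 and 7.77 with AICAR. Its log2 difference of -0.76 had the smallest adjusted p of the group (SE 0.06, limma adjusted p = 0.00017). The 3 AICAR values of Zfp40 were spread more widely than those of Zfp90, and neither gene's AICAR arrays touched the other 6.

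The other large falls had the same form. Zfp763 differed by -0.84 (SE 0.15), Zfp39 by -0.82 (SE 0.13) and Zfp111 by -0.79 (SE 0.08). Zfp72 and Zfp870 each differed by -0.76 (SE 0.10 and 0.06), and Zfp458 by -0.75 (SE 0.10). In each of these the AICAR arrays lay below all forskolin arrays.

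Zfp418 differed by -0.72 (SE 0.09), Zfp933 by -0.71 (SE 0.09) and Zfp626 by -0.70 (SE 0.14). The limma adjusted p of these 12 largest falls lay between 0.00017 (Zfp90) and 0.0234 (Zfp626). Zfp763 lost its call without forskolin array 3 or AICAR array 2 (adjusted p of 0.0572 and 0.0576), and Zfp626 without forskolin array 1 or 3 or AICAR array 2 or 3 (highest adjusted p = 0.10). Zfp719, Zfp40, Zfp39, Zfp111, Zfp72, Zfp90, Zfp870, Zfp458, Zfp418 and Zfp933 kept their call whichever of the 9 arrays was left out. Zfp229 read 7.84, 8.02 and 8.21 with forskolin and 7.71, 7.22 and 6.57 with AICAR. Its groups did not overlap, but its AICAR arrays were so widely spread that a log2 difference of -0.86 (SE 0.24) did not pass (limma adjusted p = 0.074).

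**Figure D3:**
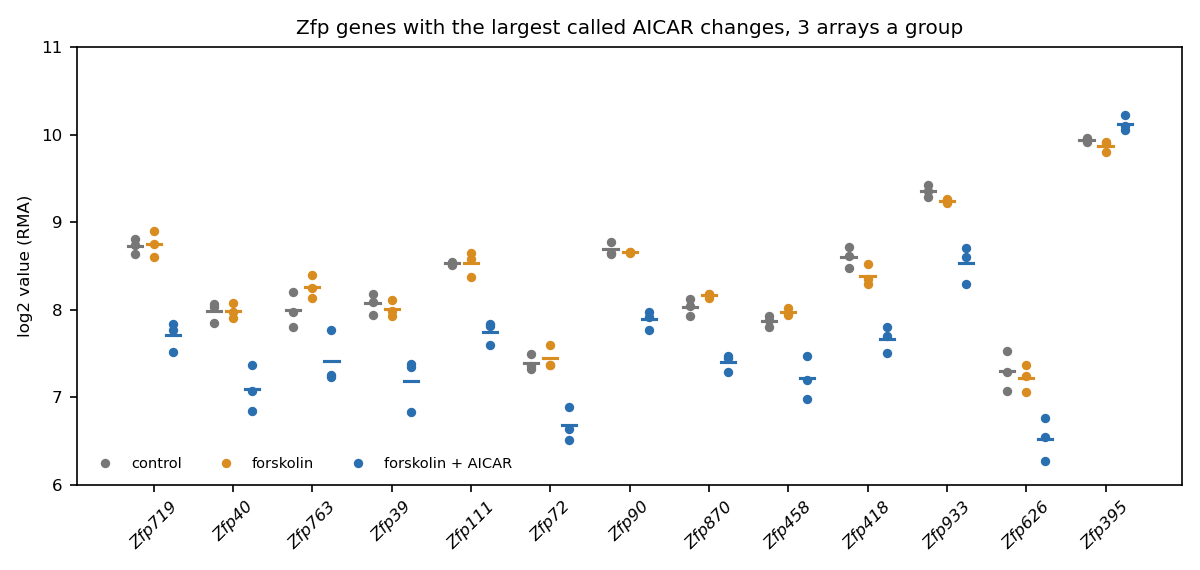
Log2 value (y axis) of the 12 genes with the largest called falls and of the 1 gene called higher under AICAR (x axis), with a point for each of the 3 arrays of control, forskolin, and forskolin with AICAR, and a bar at each group mean. In the 12 genes on the left the AICAR points lie below all forskolin points, and in Zfp395 on the right they lie above them.

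Zfp395 alone rose. Its human counterpart was described as a factor that binds the huntingtin and papillomavirus promoters. It read 9.80, 9.90 and 9.92 with forskolin and 10.05, 10.09 and 10.22 with AICAR, a log2 difference of 0.25 (SE 0.05, limma adjusted p = 0.027), and its second probe differed by 0.24. The call was lost without control array 2, without any single forskolin array and without AICAR array 2 or 3, with adjusted p between 0.0518 and 0.0883. The next highest difference, 0.21 in Zfp704, did not pass, although its AICAR arrays also lay above its forskolin arrays.

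Forskolin alone gave no call among these genes. This comparison uses the control arrays that chose the members, so its values are a description. None of the 237 genes was called against control by limma, where 0.692% of all genes tested and 1.14% of those of at least 7 were called, so that a count of 0 is near the background. At an unadjusted p under 0.05 there were 23, of which 19 were lower and 4 higher. The log2 differences ran from -0.26 in Zfp760 to 0.27 in Zfp763, with a median of -0.02, and the smallest adjusted p was 0.143, in Zfp174, which encodes a SCAN domain repressor. With arrays weighted by their quality 4 were called lower and 1 higher, and without the first control array 1 was called lower. Among all genes tested, the weights called 224 lower and 212 higher, and that omission called 18 lower.

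Zfp174 read 9.46, 9.45 and 9.41 in control cells, 9.26, 9.26 and 9.32 with forskolin, and 8.93, 9.01 and 8.95 with AICAR. Its 3 groups stood apart in that order with no overlap. The forskolin difference was -0.16 (SE 0.04), and the AICAR difference from forskolin was -0.32 (SE 0.04, limma adjusted p = 0.0017).

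Against control, forskolin with AICAR gave 101 genes called lower and 1 called higher, where 8.72% of all genes tested were called in either direction, 5.68% lower and 3.04% higher. Among genes of at least 7 these shares were 11.5% and 9.55%. This comparison shares its control arrays with the choice of members and with the forskolin comparison, and its AICAR arrays with the comparison above, so its values are set beside the others as a description. The median log2 difference was -0.21. Of the 237 genes 26 fell by at least 1.5-fold, against 119 of the 19938 genes tested (0.597%). Without control array 2, control array 3 or AICAR array 2, 61, 59 and 57 genes were called lower, and with array weights 155 were. The same settings called 578, 537, 525 and 3041 of all genes tested lower.

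The values against control stand here beside those of forskolin alone. Zfp719 differed from control by -1.02 with AICAR and by 0.03 with forskolin alone. Zfp418 differed from control by -0.94 with AICAR and by -0.22 with forskolin alone, the latter not called. Zfp229 differed from control by -1.01 (SE 0.24, limma adjusted p = 0.034), Zfp40 by -0.89, Zfp39 by -0.89 and Zfp933 by -0.82. Zfp763 stood at 0.27 with forskolin alone, not called, and at -0.58 with AICAR (limma adjusted p = 0.044). Leaving out AICAR array 1 kept the call of Zfp763, and each of the other 8 omissions ended it (highest adjusted p = 0.15). Zfp229 lost its call without any single control array, without forskolin array 1 or 2 and without AICAR array 2 (highest adjusted p = 0.13).

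The only gene called higher against control was Zfp580. It read 7.07, 7.14 and 7.09 in control cells, 7.18, 7.26 and 7.17 with forskolin, and 7.26, 7.54 and 7.36 with AICAR. Its log2 difference from control was 0.29 (SE 0.07, limma adjusted p = 0.030) and was not called without any of the 3 control arrays, without forskolin array 1 or without AICAR array 2 or 3, with adjusted p between 0.0523 and 0.102. Its difference from forskolin was 0.18 and did not pass (limma adjusted p = 0.14).

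Some members have a described role in transcription. Of 28 genes listed for their known roles 23 were members, 13 of them as transcription factors or co-repressors. Of these 13, 5 fell under AICAR against forskolin and none rose, and their median difference was -0.20, beside 32.1% called lower and a median of -0.20 over all 237 members, and 4.12% called lower over all genes tested. The list was drawn up with earlier results of these data known, and no call is made for it as a set.

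Zfp281, a GC-rich element binding protein known in embryonic stem cells as a repressor of Nanog, had the largest fall of these. It read 10.38, 10.45 and 10.44 with forskolin and 9.94, 9.91 and 9.77 with AICAR, a log2 difference of -0.55 (SE 0.05, limma adjusted p = 0.00043). It was also among the more abundant members, with a control mean of 10.5, and its AICAR arrays lay far below the other 6. Zfp110, which binds the neurotrophin receptor p75, differed by -0.36 (SE 0.07), and the KRAB gene Zfp386 by -0.28 (SE 0.06). Zfp110 lost its call without forskolin array 2 or 3 or AICAR array 2 or 3 (highest adjusted p = 0.092), and Zfp386 without forskolin array 1 or 3 or AICAR array 2 or 3 (highest adjusted p = 0.095).

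Zfp703, a co-repressor amplified in some breast tumours, read 8.66, 8.78 and 8.70 in control cells, 8.95, 9.02 and 8.86 with forskolin, and 8.66, 8.78 and 8.62 with AICAR. Its forskolin arrays lay above both other groups, which overlapped each other. The forskolin difference of 0.23 (SE 0.06) did not pass (limma adjusted p = 0.21), and the AICAR difference from forskolin was -0.26 (SE 0.06, limma adjusted p = 0.039). Zfp809, which recognises the primer binding site of murine leukaemia virus and silences its proviruses, differed by -0.21 (SE 0.05, limma adjusted p = 0.048), close to the threshold. Zfp703 lost its call without any single control array, forskolin array 1 or 2, or AICAR array 3 (highest adjusted p = 0.13), and Zfp809 kept its call only where AICAR array 1 was left out (highest adjusted p = 0.16).

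The other transcription factors of the list were not called under AICAR against forskolin. Zfp217 differed by -0.27 (limma adjusted p = 0.064) and Zfp503 by -0.20 (limma adjusted p = 0.16). Zfp423, a factor of fat cell commitment, differed by -0.01, Zfp445, which guards imprinted genes, by 0.04, and Zfp148, a GC box binding factor, by 0.10. Zfp148, at a control mean of 10.9, is one of the 5 most abundant members, none of which was called. Against control, Zfp217 (-0.45, limma adjusted p = 0.0066) and Zfp687 (-0.21, limma adjusted p = 0.026) were called lower with AICAR. Zfp217 kept this call whichever of the 9 arrays was left out. Zfp687 lost it without any single control array or AICAR array 2 (highest adjusted p = 0.098).

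A further 10 members were listed as not best known as DNA-binding transcription factors, most for work on RNA, ribosomes or the spindle. None was called under AICAR against forskolin, where 5.1% of all genes tested and 7.77% of those of at least 7 were called. A count of 0 of 10 is thus near the background. Their log2 differences ran from -0.22 (Zfp638, an RNA-binding protein) to 0.04 (Zfp330, a nucleolar protein), with a median of -0.04. Zfp598, the ubiquitin ligase that marks collided ribosomes, differed by 0.02, and Zfp207, which acts on the spindle and in splicing, by -0.00. Zfp622, which helps mature the large ribosomal subunit, differed by -0.06. Against control, Zfp318 (-0.18, limma adjusted p = 0.041) was called lower with AICAR, a call lost in 7 of the 9 omissions of an array. The rate of these 10 members was not tested against that of the transcription factors.

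Of 26 measured genes for the partners through which KRAB proteins silence DNA, 4 were called lower and none higher, where 4.12% of all genes tested and 6.8% of those of at least 7 were called lower. Setdb1, the H3K9 methyltransferase recruited by Trim28, read 9.81, 9.90 and 9.85 with forskolin and 9.71, 9.56 and 9.59 with AICAR, a log2 difference of -0.23 (SE 0.05, limma adjusted p = 0.026). Tasor, a subunit of the HUSH silencing complex, differed by -0.41 (limma adjusted p = 0.046), the chromatin remodeller Smarcad1 by -0.38 (limma adjusted p = 0.012) and the methyltransferase Suv39h2 by -0.25 (limma adjusted p = 0.037). Setdb1 lost its call without any single forskolin array or AICAR array 2 or 3 (highest adjusted p = 0.10), and Smarcad1 without forskolin array 2 or 3 or AICAR array 2 (highest adjusted p = 0.059). Tasor and Suv39h2 kept theirs only without AICAR array 1 (highest adjusted p of 0.17 and 0.13). Trim28 itself differed by -0.08 (limma adjusted p = 0.21). The median of the 26 genes was -0.04, and forskolin alone changed none of them against control.

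The AICAR difference was set against the level of the gene. Of the 79 genes with a control mean from 7 to 8, 23 fell and the median log2 difference was -0.24. Of the 98 genes from 8 to 9, 40 fell and the median was -0.25. Of the 41 genes from 9 to 10, 9 fell, 1 rose and the median was -0.12, and of the 19 genes at 10 or more 4 fell with a median of -0.06.

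Below a level of 9, therefore, 63 of 177 genes (35.6%) fell, and at 9 or more 13 of 60 (21.7%) did. Among all genes of the series in these bins the medians were 0.03 from 7 to 8, -0.05 from 8 to 9, -0.03 from 9 to 10 and -0.01 at 10 or more, and 8.31% were called lower from 7 to 9 against 5.56% at 9 or more. The share of all genes called lower was highest, at 11.1%, from 8 to 9, the bin that also held the highest share of the Zfp genes. Across the 237 genes Pearson's r between control level and AICAR difference was 0.18 and Spearman's rho 0.16, and across all 11241 genes of at least 7 they were -0.02 and -0.07. These describe genes measured on the same arrays, which are not independent, and carry no p.

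The 5 most abundant members showed the high end of this range. Zfp706, a small protein with a single finger, had a control mean of 12.6 and an AICAR difference of -0.04. Zfp207 stood at 11.2, Zfp148 at 10.9, Zfp384, which binds runs of A and T, at 10.8, and Zfp871 at 10.7. Their AICAR differences lay between -0.09 (Zfp871) and 0.10 (Zfp148). These levels are compared between probes whose brightness also depends on their sequence, so they order the genes only roughly.

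**Figure D4:**
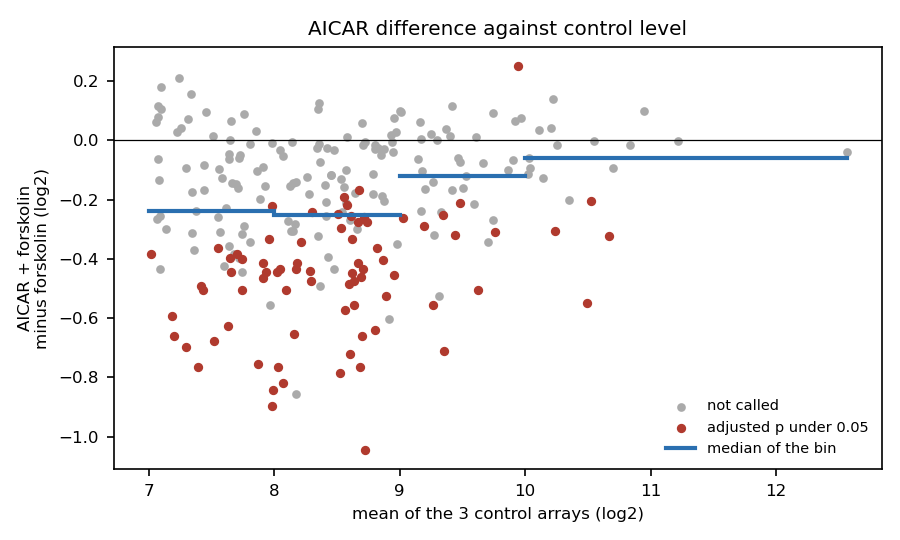
AICAR difference from forskolin (y axis, log2) against the mean of the 3 control arrays (x axis, log2) for each of the 237 genes, red where called at an adjusted p under 0.05, with the median of each level bin as a blue line. The blue line lies at -0.24 and -0.25 below a level of 9 and at -0.12 and -0.06 above it.

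The genes lay on 19 chromosomes, with 65 on chromosome 7, 30 on chromosome 17, 19 on chromosome 13 and 18 on chromosome 8 by RefSeq's genes of GRCm38.p6. A run was defined as at least 3 members with at most 10 other protein-coding genes between neighbours. This gave 20 runs on 9 chromosomes, with 122 of the 237 genes. All 20 run medians of the AICAR difference were below 0, 12 were below -0.2, and 17 runs held a called gene. Over all 237 genes 83.1% were below 0 and 32.1% fell, so these counts alone do not set the runs apart.

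Genes in runs and genes outside them differed more in their median than in their calls. In runs 41 of 122 genes (33.6%) fell with a median log2 difference of -0.26, and outside runs 35 of 115 (30.4%) fell, 1 rose and the median was -0.14. Genes in runs also had lower control levels, with a median of 8.20 against 8.74. From 7 to 9, where most genes in runs lie, 36 of 106 (34.0%) fell in runs and 27 of 71 (38.0%) outside, with medians of -0.27 and -0.21. At 9 or more the counts were 5 of 16 and 8 of 44.

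**Figure D5:**
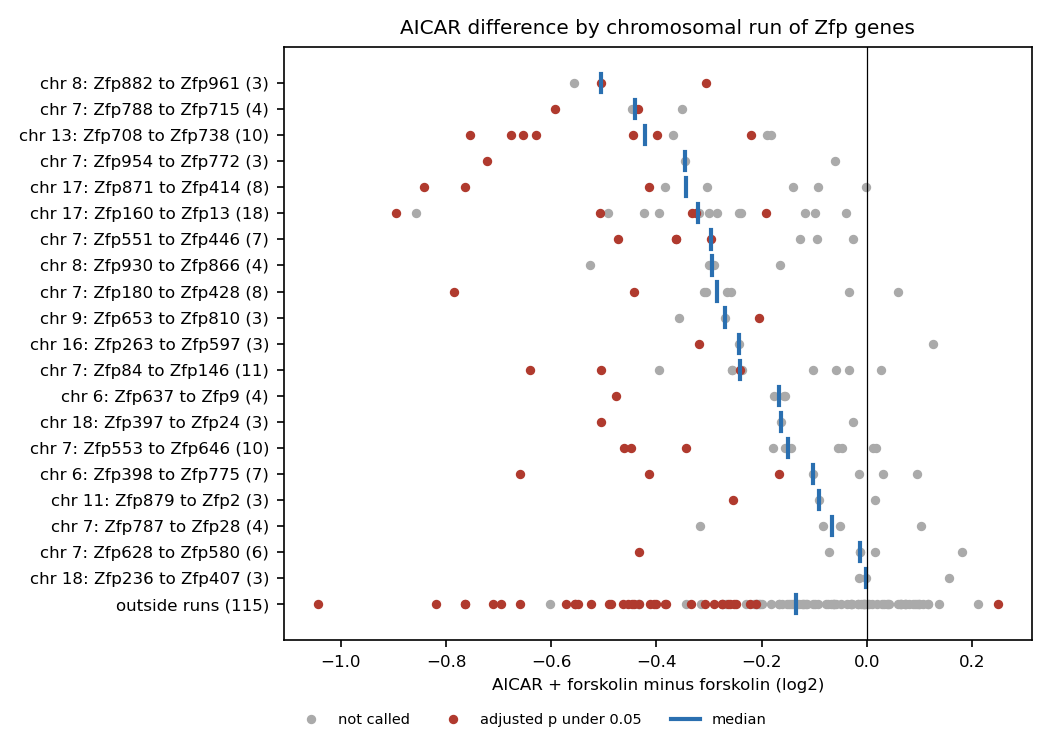
AICAR difference from forskolin (x axis, log2) of every gene, grouped by its run of neighbouring members (y axis, with the chromosome, the first and last gene and the number of members), red where called at an adjusted p under 0.05, with the median of each run as a blue bar. Runs are ordered by their median, from -0.51 at the top to -0.00 above the 115 genes outside runs.

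The run from Zfp708 to Zfp738 on chromosome 13 had the most called members of the 20 runs. Of its 10 members 7 fell, all 10 were below 0, and the median was -0.42. The deepest was Zfp458, which read 7.96, 7.94 and 8.01 with forskolin and 7.47, 7.20 and 6.98 with AICAR. Zfp595 differed by -0.68 (SE 0.08), Zfp58 by -0.65 (SE 0.12), Zfp759 by -0.63 (SE 0.11), Zfp953 by -0.44 (SE 0.06), Zfp708 by -0.40 (SE 0.06) and Zfp457 by -0.22 (SE 0.04). Zfp457 lost its call without forskolin array 1 or 3 or AICAR array 2 or 3 (highest adjusted p = 0.085), and Zfp58 without forskolin array 3 or AICAR array 2 (highest adjusted p = 0.059). Zfp87 (-0.18), Zfp748 (-0.19) and Zfp738 (-0.37) were not called. The same stretch holds Rsl1, the regulator of sex-limited protein, a KRAB gene without a Zfp number, which differed by -0.69 (SE 0.09, limma adjusted p = 0.0030).

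Promoters of this run shared a stretch of letters. The RefSeq promoter table of GRCm38.p6, which covers 250 bases before and 50 after each start, held 9 of the 10 members, and all 9 carried GGGAANTGTAGT (N is any base) before the start. Of all strings of 12 letters with 1 free position, this one, read on either strand, was held by the most genes among the members that fell, 19. They are shown because they belong to neighbouring genes, 7 of which fell, with Zfp72, also on chromosome 13 but outside the run, and Zfp111 of chromosome 7 for comparison. Each sequence is written 5′ to 3′ on the gene's own strand, ends at or before the start, and has the shared letters in capitals.
Zfp458: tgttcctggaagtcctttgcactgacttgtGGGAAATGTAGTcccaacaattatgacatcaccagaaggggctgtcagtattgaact
Zfp595: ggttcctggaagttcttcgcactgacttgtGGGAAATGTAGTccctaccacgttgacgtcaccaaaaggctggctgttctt
Zfp58: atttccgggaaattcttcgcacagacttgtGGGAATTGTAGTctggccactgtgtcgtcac
Zfp759: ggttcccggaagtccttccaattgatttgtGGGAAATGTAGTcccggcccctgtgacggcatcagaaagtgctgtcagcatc
Zfp953: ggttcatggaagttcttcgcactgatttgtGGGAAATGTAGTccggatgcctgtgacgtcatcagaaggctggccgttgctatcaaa
Zfp708: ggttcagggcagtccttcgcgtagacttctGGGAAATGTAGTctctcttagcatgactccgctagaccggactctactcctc
Zfp457: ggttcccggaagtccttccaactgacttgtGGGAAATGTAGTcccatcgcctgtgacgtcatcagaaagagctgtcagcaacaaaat
Zfp738: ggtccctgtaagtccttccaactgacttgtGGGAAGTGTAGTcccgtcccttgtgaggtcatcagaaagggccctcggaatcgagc
Zfp748: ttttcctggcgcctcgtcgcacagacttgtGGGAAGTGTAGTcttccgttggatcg
Zfp72: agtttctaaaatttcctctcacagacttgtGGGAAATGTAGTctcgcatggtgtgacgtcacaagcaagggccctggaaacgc
Zfp111: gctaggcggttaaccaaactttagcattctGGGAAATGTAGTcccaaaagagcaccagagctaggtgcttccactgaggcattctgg
The windows are Zfp458 at chr13:67269116-67269202, Zfp595 at chr13:67332561-67332641, Zfp58 at chr13:67500523-67500583, Zfp953 at chr13:67360591-67360677, Zfp708 at chr13:67081546-67081627, Zfp457 at chr13:67306435-67306521, Zfp738 at chr13:67683513-67683598, Zfp748 at chr13:67553153-67553208, Zfp72 at chr13:74390830-74390912 and Zfp111 at chr7:24208157-24208243, all on the minus strand. The window of Zfp759 is at chr13:67128146-67128227 on the plus strand.

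The letters also occurred beyond this run. On either strand GGGAANTGTAGT was in 36 of the 242 promoters listed for 196 of the members (14.9%), and in 311 of all 32851 promoters of the table (0.947%). By gene, 35 members had it and 161 did not. Of the 35, 19 fell (54.3%) with a median log2 difference of -0.36 and a median control level of 7.93. Of the 161, 44 fell (27.3%) with a median of -0.18 and a level of 8.58. The letters were found by searching the promoters of genes that fell, so these shares are a description and give no support.

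Apart from the chromosome 13 run, 26 members had the letters, of which 12 fell (46.2%) with a median of -0.26. Zfp933, Zfp111 and Zfp72 were among them. Zfp879 of chromosome 11 (0.02) and Zfp14 of chromosome 7 (0.03) had the letters and were not called. Of the 200 genes of at least 7 that are no members and had the letters, 8 were called lower (4.0%), against 6.21% of the 8611 without. The match describes letters only and no factor was measured at them.

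Zfp719, which fell most, had no such match. The 150 bases before its listed start, at chr7:43579436-43579585 on the plus strand, are shown for comparison with the sequences above, written in lower case because no letters are marked.
Zfp719: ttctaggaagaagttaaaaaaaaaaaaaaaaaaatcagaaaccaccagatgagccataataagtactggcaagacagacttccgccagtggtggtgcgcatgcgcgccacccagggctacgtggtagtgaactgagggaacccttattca

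Apart from these letters, 6 common promoter motifs were searched. The GC box GGGCGG was in 30.9% of the 81 promoters of members that fell, in 55.3% of the 161 promoters of the other members and in 35.7% of all promoters. By gene, 22 of 100 members with GGGCGG fell and 41 of 96 without it. Among other genes of at least 7 the order was the reverse, with 6.66% of those with it and 4.98% of those without it called lower. The cAMP response element core TGACG, which also lies within TGACGTCA, was in 34.6% of the promoters of members that fell, 34.8% of those of other members and 20.8% of all, and the full TGACGTCA was in 4.94%, 3.11% and 1.79%. The CCAAT box, by its letters, was in 46.9% of the promoters of members that fell, 42.9% of those of other members and 37.4% of all. The ETS-type letters CCGGAAG were in 17.3%, 19.3% and 8.86% of the same sets. The YY1-type letters AAGATGGC were in 8.64%, 4.35% and 2.75% of them. Median GC content was 54.0% in the promoters of members that fell, 58.0% in those of the others and 52.7% in all promoters. Every search covered both strands. All promoters include those of genes under 7, so they are not matched to the members for level. By gene, TGACG was in 74 members and not in 122, against 3128 and 5683 other genes of at least 7. The counts were 41 and 155 against 1814 and 6997 for CCGGAAG, and 100 and 96 against 6199 and 2612 for GGGCGG. For CCAAT they were 97 and 99 against 3728 and 5083, and for AAGATGGC 13 and 183 against 481 and 8330. TGACGTCA gave 9 and 187 against 316 and 8495.

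The other runs varied. The 3 genes Zfp882, Zfp617 and Zfp961 on chromosome 8 had the lowest run median, -0.51, and Zfp882 (-0.51, SE 0.08) and Zfp961 (-0.31, SE 0.07) fell while Zfp617 (-0.56, SE 0.17) did not pass. On chromosome 7, Zfp975 (-0.59, SE 0.11) and Zfp788 (-0.44, SE 0.07) fell in a run of 4 with a median of -0.44. The longest run, 18 genes from Zfp160 to Zfp13 on chromosome 17, had all 18 differences below 0 and a median of -0.32, but 5 calls. Its values spanned -0.90 in Zfp40 to -0.04 in Zfp760. Zfp961 kept its call only without AICAR array 1 or 3 (highest adjusted p = 0.11), and Zfp975 lost its call without forskolin array 1 or 3 or AICAR array 2 or 3 (highest adjusted p = 0.081).

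Neighbours within a run did not share one value. The SD of the differences within a run had a median of 0.19 over the 20 runs, against 0.24 over all 237 genes, and went from 0.08 to 0.33. On chromosome 17 the run from Zfp871 to Zfp414 held Zfp763 at -0.84 and Zfp870 at -0.76, beside Zfp414 at -0.00. On chromosome 7 Zfp111 (-0.79) shared a run with Zfp180 (0.06), and Zfp418 (-0.72) with Zfp772 (-0.06).

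At the other end stood runs near 0. The run from Zfp628 to Zfp580 on chromosome 7 had a median of -0.01, with Zfp628 lower (-0.43, SE 0.06) and Zfp580 at 0.18. Zfp236, Zfp516 and Zfp407 on chromosome 18 lay between -0.02 and 0.16 with no call. On the same chromosome Zfp397 fell (-0.50, SE 0.09) beside Zfp24 (-0.03), a call lost without forskolin array 2 or 3 or AICAR array 2 (highest adjusted p = 0.060). No run had a called rise.

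Genes of other names lie inside the same runs. Of 85 measured genes there whose symbol has no Zfp number, 5 were called lower (5.88%) and 3 higher, with a median of 0.01. Over all genes tested, 4.12% were called lower and 0.978% higher. All 5 lower calls, Rsl1 among them, were in the 50 of these with a control mean of at least 7 (10.0%). The others were Gm10033 (-0.99, SE 0.12), Fiz1 (-0.39, SE 0.06), Srcap (-0.21, SE 0.04) and Krba1 (-0.18, SE 0.04). These genes were set apart by symbol alone, so KRAB genes such as Rsl1 are among them. Among all genes of at least 7, 6.8% were called lower. A further 4 genes carry a Zfp number with a letter, all in the chromosome 13 run, and of these Zfp874a was called lower (-0.55, SE 0.06) and Zfp729a, Zfp729b and Zfp874b were not called. The 19 numbered Zfp genes of the runs that lay under 7 included 6 called lower, with a median of -0.21, among them Zfp455 (-0.88) and Zfp459 (-0.42) on chromosome 13. Zfp455 lost its call without any single forskolin array and without AICAR array 2 or 3 (highest adjusted p = 0.12), and Zfp459 without control array 2, forskolin array 2 or 3, or AICAR array 2 or 3 (highest adjusted p = 0.10). The part of location in the fall was not tested.

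The probes set some limits. Of 12 members with more than 1 probe, the second probe had the opposite sign in Zfp319, Zfp407, Zfp664 and Zfp706, and of these only Zfp319 was called (-0.49, against 0.03 for a probe with a control mean of 5.97). Both probes of Zfp788 gave the same control mean (8.05) and the same AICAR difference (-0.44), so the second adds no separate reading. In 89 members at least 2 of the 9 arrays carried exactly the same deposited value. Neighbouring Zfp genes are often near copies, so a probe may also bind a neighbour's message, and this was not tested.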

How the data were processed

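The authors deposited log2 values of the 9 arrays, 1 for each transcript cluster, here named a probe. RMA and Partek are the tools that the submitters' processing notes list. Versions and settings are not given in the sources used here, nor is a genome build. RMA in its usual form corrects background, gives the arrays a common distribution and summarises each probe set, so a shift shared by all genes would not be seen. The deposited values did not share one distribution, as their interquartile ranges went from 3.24 to 3.53. The number of arrays limits the precision.

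Of 35557 probes, 21789 carried 1 symbol, 1621 several and 12147 none listed, and only the first were used. For a gene with several probes the one with the highest mean over the 9 arrays was kept. Symbols were checked by gene identifier against RefSeq (GRCm38.p6), which also gave gene order. Runs rest on gene order only, so gene positions are not printed. Promoter windows carry the build of the RefSeq promoter table, which listed 196 of the 237 members. Members without an entry were not used in the promoter searches.

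The 3 groups were fitted together with limma 3.58.1 under R 4.3.3, with 3 contrasts, two-sided moderated tests and Benjamini-Hochberg adjustment over 19938 genes. A gene was called at an adjusted p under 0.05 and is said to have risen or fallen only then. The fit was tested on simulated data. Python 3.11.15 with pandas 2.3.3, numpy 2.4.6 and matplotlib 3.10.9 made the tables and figures. Members, gene lists and motifs were chosen with earlier results of these data known.

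The genes named are the 12 largest falls and up to 6 largest rises called under AICAR against forskolin with no overlap of arrays, the largest called in the other comparisons, the 5 most abundant, those beside the threshold, the extremes of runs, Zfp719, the genes of the lists, and called genes of the cofactor list. Zfp704, Zfp174, Zfp703, Zfp319, Rsl1, Zfp455, Zfp459, Zfp874a, Zfp874b, Zfp729a, Zfp729b and the other members of the chromosome 13, 8 and 7 runs were named after their values were seen, as were Zfp397 and the letters GGGAANTGTAGT. Gm10033, Fiz1, Srcap and Krba1 were also named after their values were seen. Alternatives covered normalization, filters, array weights, the prior, the groups in the fit, thresholds, run definition, the replicate number as a block, and each array left out.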

Additional observations from a re-analysis of the deposited data

How the results depend on the processing

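The median AICAR difference of the 237 genes was below 0 under every alternative run, but the counts of calls moved. Against forskolin, with 76 lower and 1 higher in the main analysis, array weights gave 143 lower and 8 higher, the fit of only these groups 47 and 0, a threshold of 1.5-fold 19 and 0, and a control threshold of 6 gave 2 higher. Among all 19938 genes tested, the main fit called 822 lower and 195 higher, and array weights 2654 and 3075. The fit of only these groups called 446 and 50 of them. Leaving out single arrays gave 46 to 120 lower and 0 to 4 higher. These omissions called 425 to 1647 of all genes tested lower and 62 to 1677 higher. Forskolin against control, with 0 calls, had 4 lower and 1 higher with array weights and 0 to 1 lower with an array left out. There, array weights called 224 of all genes tested lower and 212 higher, against 39 and 99 in the main fit. Against control, with 101 lower and 1 higher for forskolin with AICAR, array weights gave 155 and 8, the fit of only these groups 64 lower, and 1.5-fold 26 and 0. For all genes tested the main fit gave 1133 lower and 606 higher, and array weights 3041 and 3578. The fit of only these groups called 609 of them lower. Cyclic loess and quantile normalization each gave 3 higher, a filter at a mean of 6 and a trended prior 2 each, and a control threshold of 8 gave 0. Genes called higher in the whole fit were 395 with cyclic loess and 541 with quantile normalization. They were 647 with the filter and 617 with the trended prior. Leaving out single arrays gave 57 to 132 lower and 0 to 7 higher. Such omissions called 525 to 2066 of all genes tested lower and 123 to 2675 higher. The correlation of level and AICAR difference, 0.18, was 0.27 with cyclic loess and 0.26 with quantile normalization. The median below a level of 9 minus that at 9 or more, -0.15, was -0.13 with quantile normalization, and -0.16 to -0.12 with an array left out. The cause of these moves was not tested, apart from the 1.5-fold rule, which can only remove calls, and the omissions, which leave fewer arrays. The difference between genes in runs and outside, -0.12, moved by less than the spread between replicates under all alternatives run, including at most 5 or 20 genes between neighbours.

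Arrays of the same replicate number did not deviate together in every pair (correlations from -0.41 to 0.33). With 3 arrays a group these values cannot decide whether the numbers pair the arrays, and the main fit took no pairing. With the number as a replicate block 57 genes were lower and 1 higher against forskolin, 0 changed with forskolin against control, and 74 were lower and 1 higher for AICAR with forskolin against control. For all genes tested the block gave 517 lower and 66 higher, 16 and 67, and 679 and 195 in these comparisons. The planned comparison by protein features was not run because no protein sequences were used here. With 3 arrays a group no difference from forskolin nearer to 0 than -0.17 on the log2 scale was called among the falls, and signal over background was not tested.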

Other observations

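Zinc finger genes outside the expressed numbered Zfp genes were measured on the same arrays, where 4.12% of all genes tested and 6.8% of those with a control mean of at least 7 were called lower under AICAR against forskolin. Of the 79 numbered Zfp genes under the control threshold, 10 were called lower (12.7%) and 2 higher under AICAR against forskolin, with a median log2 difference of -0.03. Below 0 were 57.0% of them, against 40.8% of all genes tested. The shares above are not matched to the level of these 79 genes. Of the 822 genes called lower among all genes tested, 764 had a control mean of at least 7. Of 32 Zbtb genes with a control mean of at least 7, which carry a BTB domain beside their fingers, 5 were lower and none higher, with a median of -0.12. Of 15 Zkscan and Zscan genes, which carry a SCAN domain, 2 were lower and none higher, with a median of -0.20. Against control, forskolin alone gave no call by limma in these 3 sets, in which 7, 2 and 0 genes had an unadjusted p under 0.05. The difference between these sets and the expressed numbered Zfp genes was not tested.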
